A study of Mus musculus with 6 samples.

Results

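The genes described here encode the machinery that makes and places the programmed DNA double-strand breaks of meiosis. They are 9 genes taken by name from the 54532 genes of the deposited table: Spo11, Gm960 (also called Top6bl), Rec114, Mei4, Iho1 (listed as Ccdc36), Ankrd31, Mei1, Prdm9 and Zcwpw1. All 9 were found and all 9 met the minimum for testing, which 17658 genes met. Polyadenylated RNA of whole testis was sequenced from mice on postnatal day 9, with 3 wild-type libraries and 3 libraries of mice with a conditional knockout of Ppp6r3 (Ppp6r3 cKO), which encodes a subunit that regulates protein phosphatase 6. The labels give no Cre line, promoter, floxed exon or strain. They do not say whether the 3 samples of a group came from different animals, and the p-values then measure no more than the spread between these libraries, part or all of which may be technical.

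Meiotic recombination starts when SPO11, a relative of the catalytic subunit of topoisomerase VI, cuts both strands of DNA together with its partner TOPOVIBL, the product of Gm960. REC114, MEI4 and IHO1 assemble on the chromosome axis and are required for cutting, ANKRD31 binds REC114 and is needed for breaks in the region shared by the X and Y chromosomes, and MEI1 is required for breaks to form. PRDM9 chooses most break sites in the mouse by binding DNA through its zinc fingers and methylating lysines of histone H3, and ZCWPW1 reads those marks and helps repair. In the testis these genes are switched on as spermatogonia enter meiosis, which in the first wave of spermatogenesis happens at about the age sampled here.

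Depth was inferred from the steps between the deposited values and was 15970908 to 16606868 fragments per library. The recovered fragments summed to 98.92% to 100.69% of this depth, so it is approximate. Levels are in FPKM, which are fragments scaled to exon length and to library depth. Ppp6r3 itself stood at 20.8, 21.3 and 21.005 FPKM in the wild-type libraries and at 15.8, 15.3 and 14.9 FPKM in the Ppp6r3 cKO libraries, a mean of 73.0% of wild type in the whole tissue (limma adjusted p = 0.000695). Ppp6r3 cKO replicate 1 stood apart in base composition: its median deviation from the gene mean was -0.111 on the log2 scale in the tenth of genes with the lowest GC content and 0.126 in the tenth with the highest. In the other 5 libraries these medians ran from 0.009 to 0.056 and from -0.064 to 0.025.

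The promoters of 3 of the genes are shown because these genes span the range of changes reported below: Prdm9 and Gm960 are among the 3 with the largest falls and Rec114 has the smallest. Each sequence is the 250 bases before the RefSeq start of the gene on GRCm38.p6, written 5′ to 3′ on the strand of the gene, with matches to the searched motifs in capitals. Prdm9 has another RefSeq start, whose window (chr17:15563332-15563581) held no match and is not shown. None of the 3 windows shown holds a base of an exon in GENCODE M21. The Rec114 window lies inside the longer GENCODE gene.
Prdm9, chr17:15564355-15564604, minus strand: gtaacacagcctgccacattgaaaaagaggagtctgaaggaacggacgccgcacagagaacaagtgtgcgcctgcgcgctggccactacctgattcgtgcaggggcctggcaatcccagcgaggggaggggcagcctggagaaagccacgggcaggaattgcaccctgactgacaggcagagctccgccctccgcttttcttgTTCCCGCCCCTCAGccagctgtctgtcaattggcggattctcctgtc
Gm960, chr19:4698669-4698918, minus strand: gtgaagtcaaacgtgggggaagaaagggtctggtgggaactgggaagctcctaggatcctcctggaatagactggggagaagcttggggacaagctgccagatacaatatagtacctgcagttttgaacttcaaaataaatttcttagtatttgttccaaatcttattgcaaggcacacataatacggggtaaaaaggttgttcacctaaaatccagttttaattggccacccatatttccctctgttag
Rec114, chr9:58741560-58741809, minus strand: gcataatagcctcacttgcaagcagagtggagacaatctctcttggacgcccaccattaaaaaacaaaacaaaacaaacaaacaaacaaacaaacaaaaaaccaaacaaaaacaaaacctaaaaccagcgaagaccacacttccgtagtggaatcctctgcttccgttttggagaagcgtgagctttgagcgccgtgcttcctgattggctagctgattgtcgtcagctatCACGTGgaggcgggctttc

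Windows were held for 8 of the 9 genes, with 10 starts in all, and Spo11 had no entry. On either strand, TTCCCGC, the core letters bound by E2F factors, occurred before 1 of these 8 genes, Prdm9, and in 4.38% of all 27025 genes with a window. CNCCTCAG, letters associated with STRA8 binding, occurred before Prdm9 as well and in 7.39% of all genes. The Prdm9 matches start 47 and 41 bases upstream and share 1 base. The E-box CACGTG occurred before Rec114, 19 bases upstream, and in 6.86% of all genes, and the cyclic AMP response element TGACGTCA occurred before none of the 8 and in 1.77% of all genes. A match is a description of the letters and not of binding.

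Transcripts of the break machinery were lower in Ppp6r3 cKO testis. Of the 9 genes, 8 fell and 1, Mei4, did not pass (limma, adjusted p under 0.05 over all tested genes), against 7.86% of all tested genes that fell. None rose, either by limma or by voom on the recovered fragments. At an unadjusted p under 0.05 the count was 9 lower and 0 higher, but the share of all tested genes at that threshold was not counted. In all 9 genes every Ppp6r3 cKO library lay below every wild-type library, which held for 18.2% of tested genes. The median log2 fold change was -0.78, beside 0.0027 over all tested genes. All fold changes were computed from log2(FPKM + 0.1), and this scale understates the change of genes at low levels. In whole tissue, fewer cells that express a gene and less RNA per cell cannot be told apart.

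**Figure D1:**
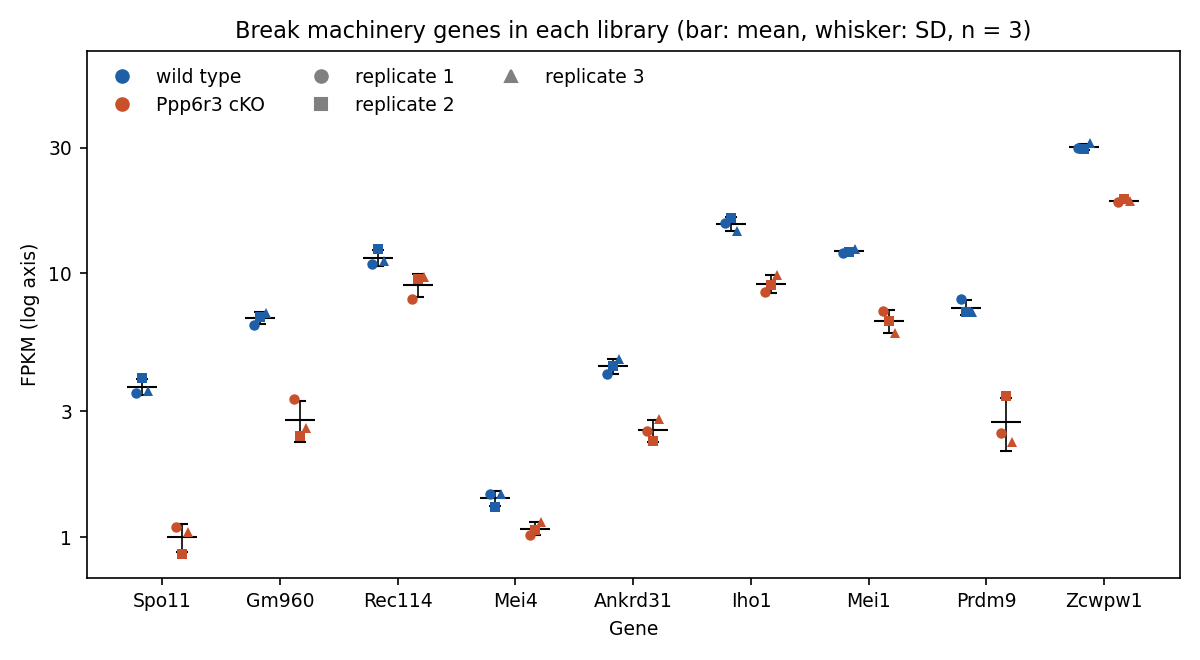
FPKM of the 9 break machinery genes (horizontal axis) in each library on a log axis, wild type in blue and Ppp6r3 cKO in orange, with the mean and SD of 3 libraries. For each gene all 3 Ppp6r3 cKO points lie below all 3 wild-type points, with the widest gap at Spo11 and narrow gaps at Rec114 and Mei4.

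The subunits that cut DNA fell more than most of the group. Spo11 (ENSMUSG00000005883, chromosome 2, 172977700 to 172993576, plus strand) was at 3.53, 4.01 and 3.59 FPKM in the wild-type libraries and 1.09, 0.862 and 1.04 FPKM in the Ppp6r3 cKO libraries. The groups were far apart, and the mean of Ppp6r3 cKO was 26.9% of that of wild type. The log2 fold change was -1.80 (SE 0.12, 95% interval -2.08 to -1.52, limma adjusted p = 0.000187), rank 15 from the lowest of all 17658 tested genes. The gene rested on 225 to 261 fragments per wild-type library and 54 to 70 per Ppp6r3 cKO library. The SD of Spo11 was 7.03% of the mean in wild type and 12.05% in Ppp6r3 cKO, close to the 6.47% and 12.6% that counting this many fragments gives by itself. The value covers the whole gene and does not separate the splice forms of Spo11.

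Gm960, which encodes the partner subunit TOPOVIBL (ENSMUSG00000071691, chromosome 19, 4625734 to 4698668, minus strand), was at 6.37, 6.84 and 7.09 FPKM in wild type, against 3.34, 2.42 and 2.59 FPKM in Ppp6r3 cKO. Replicate 1 was the highest of the Ppp6r3 cKO libraries and still lay below every wild-type library. The log2 fold change was -1.26 (SE 0.12, limma adjusted p = 0.000703), to 41.2% of wild type. The ratio of Spo11 to Gm960 averaged 0.55 ± 0.040 in wild type against 0.36 ± 0.038 after knockout (SD over 3 libraries), so the catalytic subunit was the lower of the pair in every library, and the ratios of the 2 groups did not overlap. This ratio and those below are descriptions. The share of other gene pairs whose ratios separate the groups was not counted.

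Among the proteins that assemble on the axis, the changes were uneven. Rec114 (ENSMUSG00000074269, chromosome 9, 58652850 to 58743964, minus strand) was at 10.8, 12.4 and 11.1 FPKM in wild type, against 8.03, 9.55 and 9.66 FPKM in Ppp6r3 cKO. Its log2 fold change was -0.33 (SE 0.084, 95% interval -0.53 to -0.14, limma adjusted p = 0.0324), to 79.3% of wild type. The highest Ppp6r3 cKO library lay close under the lowest wild-type library, and the call was lost without any 1 of the wild-type libraries or without Ppp6r3 cKO replicate 1 (adjusted p = 0.0513 to 0.109, log2 fold change -0.37 to -0.25), and after a correction for GC content and length (adjusted p = 0.0706). Calls became fewer over all tested genes as well. They went from 2743 to between 1242 and 1625 without 1 wild-type library, and to 2396 without Ppp6r3 cKO replicate 1. In GENCODE, 344 exon bases of Rec114 (26.9%) overlap exons of Nptn on the other strand, and Nptn averaged 20.1 FPKM in wild type, against 20.3 FPKM in Ppp6r3 cKO. Whether counting used strand is not given in the sources used here; without it, reads of both genes cannot be told apart in that stretch.

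Mei4, which encodes the partner of REC114 (ENSMUSG00000043289, chromosome 9, 81863670 to 82206007, plus strand), was at 1.46, 1.30 and 1.46 FPKM in wild type, against 1.02, 1.06 and 1.14 FPKM in Ppp6r3 cKO. The libraries did not overlap, but the log2 fold change of -0.36 did not pass (SE 0.13, 95% interval -0.65 to -0.068, limma adjusted p = 0.0946). With 69 to 100 fragments per library, Mei4 had the fewest fragments of the 9 genes in wild type, and its change stayed short of the threshold in all 17 alternatives. The ratio of Rec114 to Mei4 was 8.18 ± 1.14 in wild type and 8.43 ± 0.566 in Ppp6r3 cKO, and the groups overlapped.

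Iho1, whose product ties the cutting machinery to the axis protein HORMAD1 (ENSMUSG00000047220, chromosome 9, 108403611 to 108428484, minus strand), was at 15.5, 16.3 and 14.5 FPKM in wild type, against 8.53, 9.03 and 9.88 FPKM in Ppp6r3 cKO. This is 59.3% of wild type, a log2 fold change of -0.75 (SE 0.068, limma adjusted p = 0.000659). The ratio of Iho1 to Rec114 went from 1.35 ± 0.0716 to 1.01 ± 0.0599, without overlap. Ankrd31 (ENSMUSG00000109561, chromosome 13, 96748272 to 96910039, plus strand) was at 4.15, 4.44 and 4.75 FPKM in wild type, against 2.53, 2.31 and 2.80 FPKM in Ppp6r3 cKO. Its log2 fold change was -0.78 (SE 0.097, limma adjusted p = 0.00228), and the ratio of Rec114 to Ankrd31 rose from 2.58 ± 0.224 to 3.59 ± 0.495, again with the groups apart.

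Mei1, whose product is required for breaks in both sexes (ENSMUSG00000068117, chromosome 15, 82069996 to 82126814, plus strand), was at 11.98, 12.1 and 12.3 FPKM in wild type, against 7.22, 6.63 and 5.94 FPKM in Ppp6r3 cKO. The SD was 1.56% of the mean in wild type, below the 3.26% that counting gives by itself. In Ppp6r3 cKO it was 9.76%, against 4.45% from counting. The log2 fold change was -0.87 (SE 0.072, limma adjusted p = 0.000433), to 54.4% of wild type.

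The genes that mark and read break sites both fell, Prdm9 the more. Prdm9 (ENSMUSG00000051977, chromosome 17, 15543079 to 15564354, minus strand) was at 7.995, 7.12 and 7.17 FPKM in wild type, against 2.48, 3.44 and 2.30 FPKM in Ppp6r3 cKO, or 36.9% of wild type (log2 fold change -1.43, SE 0.14, 95% interval -1.75 to -1.10, limma adjusted p = 0.000958). Ppp6r3 cKO replicate 2 was the highest of its group, and the SD there was 22.4% of the mean, above the 7.24% of counting alone. Without that library the log2 fold change of Prdm9 was -1.59. Zcwpw1 (ENSMUSG00000037108, chromosome 5, 137787798 to 137822621, plus strand), the most abundant of the 9, was at 30.05, 29.6 and 31.2 FPKM in wild type, against 18.6, 19.2 and 18.9 FPKM in Ppp6r3 cKO. It fell to 62.4% of wild type (log2 fold change -0.68, SE 0.040, limma adjusted p = 0.00013) on 1734 to 2843 fragments per library. The ratio of Zcwpw1 to Prdm9 went from 4.09 ± 0.303 to 7.10 ± 1.36 and did not overlap between groups.

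**Figure D2:**
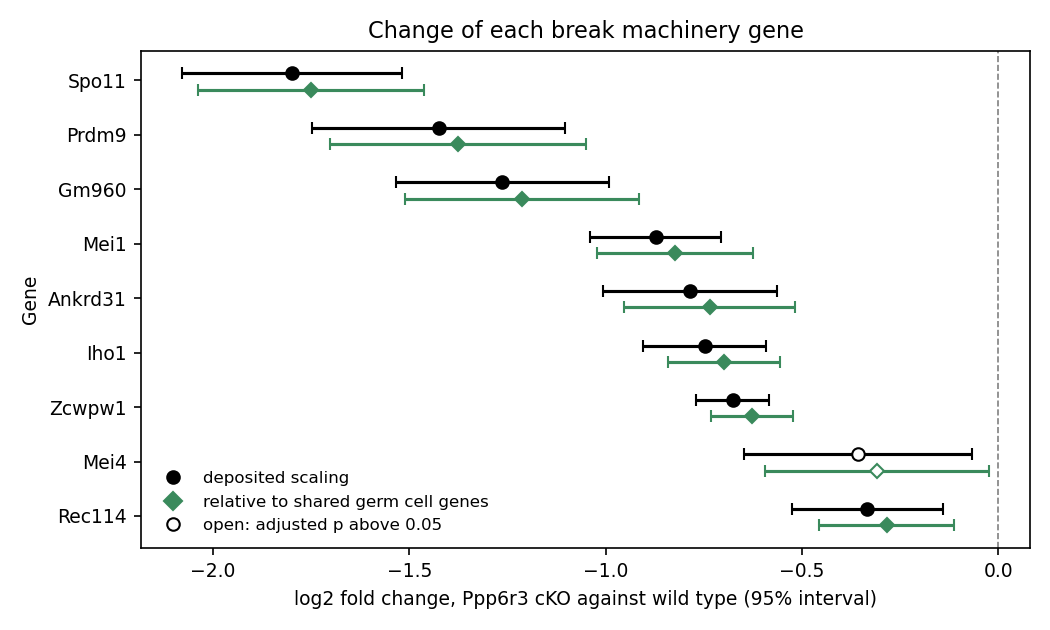
Log2 fold change of each gene with its 95% interval (horizontal axis), in the deposited scaling (black circles) and relative to 7 genes shared by germ cells (green diamonds); open symbols have an adjusted p above 0.05. Spo11, Prdm9 and Gm960 lie below -1, Rec114 and Mei4 lie nearest to 0, and the green symbols are shifted by about 0.05.

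To ask whether the genes changed by different amounts, each tested gene was compared with Zcwpw1 within the same library and the comparison was fitted over all tested genes; this was chosen after the values were seen. Since Zcwpw1 itself fell, 85.4% of tested genes were higher relative to it and 0.561% were lower. Spo11 fell further than Zcwpw1 by 1.12 on the log2 scale (95% interval of the difference -1.42 to -0.82, limma adjusted p = 4.0e-05), Prdm9 by 0.75 (adjusted p = 0.000716) and Gm960 by 0.59 (adjusted p = 0.00166). Rec114 fell less, with a difference of 0.34 (95% interval 0.15 to 0.54, adjusted p = 0.00466), a direction it shares with most tested genes. These 4 differences passed without any 1 library. The stretch that Rec114 shares with Nptn was not taken out, here or in the ratios with Rec114. Its part in these values was not tested. The differences of Mei1 (-0.20, adjusted p = 0.0373) and Mei4 (0.32, adjusted p = 0.0429) were past the threshold with all 6 libraries, but Mei4 was lost without any 1 library (adjusted p = 0.0598 to 0.116) and Mei1 in each case except without Ppp6r3 cKO replicate 1 (adjusted p = 0.00401 to 0.131). Differences from Zcwpw1 were not detected for Iho1 (95% interval -0.25 to 0.11) or Ankrd31 (-0.33 to 0.12).

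The order of mean levels differed between the groups only for pairs of genes whose libraries overlapped in wild type or in Ppp6r3 cKO. FPKM is per length, which allows only a rough comparison between genes. In wild type the order of mean level was Zcwpw1, Iho1, Mei1, Rec114, Prdm9, Gm960, Ankrd31, Spo11 and Mei4. Mei1 and Rec114 overlapped there, and Prdm9 lay just above Gm960. In Ppp6r3 cKO the order was Zcwpw1, Iho1, Rec114, Mei1, Gm960, Prdm9, Ankrd31, Mei4 and Spo11. Iho1 and Rec114 overlapped in Ppp6r3 cKO, as did Gm960, Prdm9 and Ankrd31 among themselves. Spo11 and Mei4 overlapped at the low end. The ratio of Mei4 to Spo11 was 0.414, 0.324 and 0.406 in the wild-type libraries and 0.938, 1.23 and 1.10 in the Ppp6r3 cKO libraries. Summed over the 9 genes, the level was 91.9 to 94.0 FPKM in the wild-type libraries and 52.9 to 54.5 FPKM in the Ppp6r3 cKO libraries, of which Zcwpw1 made up 32.6% and 35.1%.

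**Figure D3:**
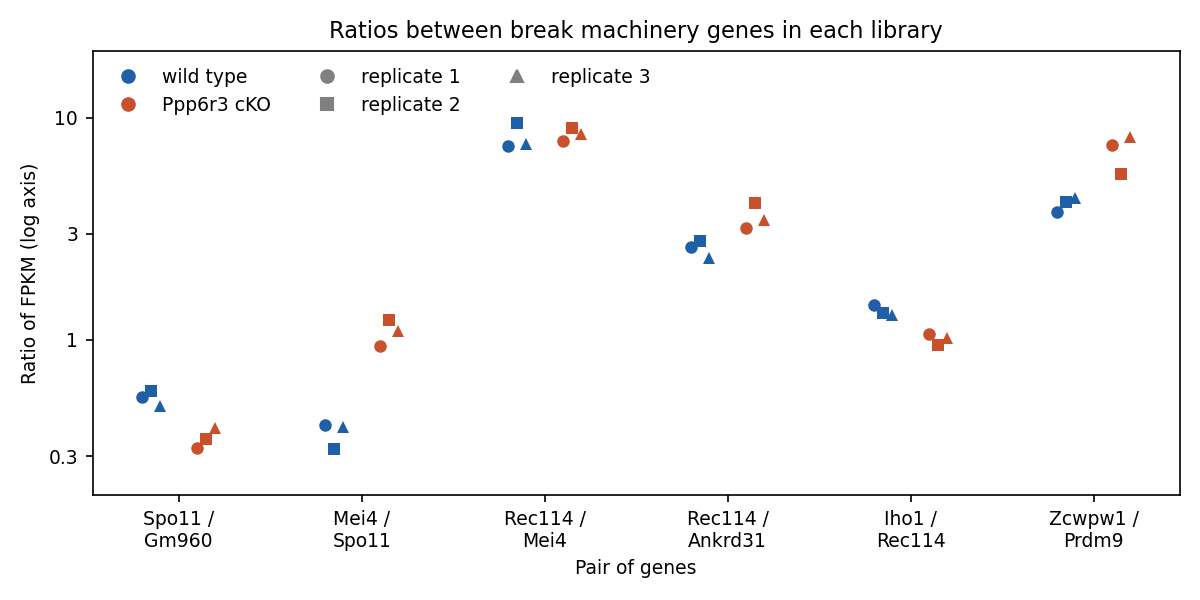
Ratio of FPKM between pairs of break machinery genes in each library on a log axis, wild type in blue and Ppp6r3 cKO in orange. The ratio of Rec114 to Mei4 overlaps between groups, while Mei4 to Spo11 runs from 0.324 to 0.414 in wild type and from 0.938 to 1.23 in Ppp6r3 cKO.

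Markers of other cells moved between the groups, and these were measured beside the break machinery. Of 7 matched genes of a list taken as shared by germ cells, Dazl (log2 fold change -0.25, limma adjusted p = 0.0446) and Mael (-0.17) fell, and 5 were short of the threshold. Neither call held without any 1 wild-type library or without Ppp6r3 cKO replicate 2, where the count was 0. The list's median was -0.042, and its sum ran from 377 to 393 FPKM in the wild-type libraries and from 329 to 364 FPKM in the Ppp6r3 cKO libraries. Ddx4, which encodes an RNA helicase of germ cells, was at -0.16 (limma adjusted p = 0.0857), at -0.099 without Ppp6r3 cKO replicate 1 and at -0.070 after the GC and length correction, and passed with voom (adjusted p = 0.0132). Set relative to the mean log2 level of these 7 genes in each library, the same 8 break machinery genes were called lower, with log2 fold changes from -1.75 for Spo11 to -0.28 for Rec114, against 4.92% of all tested genes. In that scaling, 1677 of all tested genes rose and 868 fell, where the deposited scaling gave 1355 and 1388. Whether the 7 genes keep the same level across stages of germ cells was not tested.

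Among all 17658 tested genes 1355 rose and 1388 fell, which is the background for the counts in the lists below. Of 7 tested genes of undifferentiated spermatogonia 3 rose, with Zbtb16 at 0.50, and the summed level of the list ran from 39.0 to 42.5 FPKM over the wild-type libraries and from 48.5 to 51.8 FPKM over the Ppp6r3 cKO libraries. Endothelial genes rose in 5 of 6 cases (Tie1 at 0.95), with sums of 33.5 to 37.3 and 53.9 to 57.5 FPKM. Macrophage genes rose in 3 of 5 cases (Lyz2 at 0.65), with sums of 82.6 to 89.0 and 118 to 127 FPKM. Of 6 Sertoli genes Amh (0.36) and Gata4 rose and Rhox5 (-0.51) fell, of 6 Leydig genes Hsd3b1 (0.25) rose, and of 5 peritubular myoid genes Acta2 (-0.25) and Cnn1 fell. The Gata4 call was lost without any 1 wild-type library, the Rhox5 call without any of these or without Ppp6r3 cKO replicate 1, and the myoid count was 1 without any 1 library. The sums ran from 516 to 532 and 509 to 578 FPKM for Sertoli genes, 174 to 181 and 193 to 196 FPKM for Leydig genes, and 592 to 618 and 500.3 to 529 FPKM for myoid genes. Of 8 genes of pachytene and later cells, 5 averaged under 0.5 FPKM, and no gene of any of these lists was at 0 in all libraries. Of the 4 that were tested, Ybx2 (log2 fold change -1.05) fell and 3 did not pass. The list's sum was 21.2 to 23.6 FPKM over the wild-type libraries and 12.3 to 14.5 FPKM over the Ppp6r3 cKO libraries, and the 7 genes other than Ybx2 summed to 2.76 to 3.38 and 3.71 to 4.27 FPKM. Piwil1 (1.16 and 1.32 FPKM on average, log2 fold change 0.18, limma adjusted p = 0.383) and Tnp1 (0.651 and 1.32 FPKM, not tested) were higher in each Ppp6r3 cKO library than in any wild-type library. This held for 3318 of the 17658 tested genes. The rest averaged under 0.5 FPKM, with Pgk2 and Ldhc higher and Ccna1, Acrv1 and Prm1 lower on average in Ppp6r3 cKO. Apart from the scaling to germ cell genes, the part of these shifts in the break machinery result was not tested.

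The rest of the pathway was read from 8 lists of 66 genes, of which 65 were tested: 31 fell, 3 rose and 31 did not pass. All 8 genes of the chromosome axis, the platform on which the cutting proteins sit, fell, with a median log2 fold change of -0.87. Hormad1, the axis partner of IHO1, went from 20.7 ± 1.30 to 10.6 ± 0.945 FPKM (log2 fold change -0.97, limma adjusted p = 0.000354). Sycp2 fell by 1.22 on the log2 scale. Among 5 regulators of meiotic entry, Stra8 (-1.34), its partner Meiosin (-1.78) and Meioc fell and 2 did not pass. Of 13 genes that load recombinases onto broken ends and carry out strand invasion, 9 fell, led by the single-strand DNA binding factor Meiob (-2.10). The meiotic recombinase Dmc1 fell by 1.12 on the log2 scale. The 3 subunits of replication protein A, which all dividing cells use, were between -0.065 and 0.019 and did not pass.

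Genes that act on breaks in many cell types were counted next, with the 7.86% of all tested genes that fell as their background. Of 9 genes of end processing 1, Tdp2 (-0.33, adjusted p = 0.0156), fell and 8 did not pass (median -0.15). In 6 of the 9 every Ppp6r3 cKO library lay below every wild-type library, against 18.2% of all tested genes. Tdp2 removes topoisomerases trapped on DNA ends. Exo1, the exonuclease that widens resected ends, was at 0.016. Of 8 kinases and checkpoint genes with Trip13, 4 fell, with Chek1 at -0.45, and Atm, which restrains further cutting by SPO11, was at -0.10 (adjusted p = 0.224). Trip13, the ATPase that removes HORMA proteins from the axis, was at -0.087 and did not pass. Without Ppp6r3 cKO replicate 1, Trip13 was at -0.022 and Atm at -0.067, and without Ppp6r3 cKO replicate 2 Trip13 was at -0.13. The end processing count went to 0 without wild-type replicate 3, to 2 without wild-type replicate 1 or the third Ppp6r3 cKO library, and to 4 with voom, and the kinase count to 2 without wild-type replicate 2 or 3.

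Relatives and partners of the 9 genes did not all move with them. Among 6 topoisomerases of somatic and germ cells, Top1mt (-0.37) and Top2a (-0.23) fell and 4 did not pass, though the Top2a call was lost without wild-type replicate 2 (adjusted p = 0.0507). Of 6 tested partners of PRDM9, the ZCWPW1 paralog Zcwpw2 fell, and Ehmt2 (0.25) and Cdyl (0.21) rose. Zcwpw2 went from 1.67 ± 0.311 FPKM in wild type to 0.820 ± 0.0695 FPKM in Ppp6r3 cKO (log2 fold change -0.93). Hells, a chromatin remodeller that works with PRDM9, was at -0.086 (limma adjusted p = 0.384). It was between -0.13 and -0.027 without replicate 1 or 3 of Ppp6r3 cKO or replicate 3 of wild type. Morc2b was near 0 and not tested. Of 10 other methyltransferases for the histone H3 lysines that PRDM9 modifies, 3 fell and 1 rose (median -0.018), all by less than 0.4 on the log2 scale: Kmt2c was at -0.29, and Setd1b at 0.34, a call lost without any 1 library. The count that fell among these enzymes was 0 without wild-type replicate 1 or 3, and 1 without the second library of either group or Ppp6r3 cKO replicate 3. Among the PRDM9 partners, the count that rose was 1 without any 1 wild-type library, and the count that fell was 2 without Ppp6r3 cKO replicate 1.

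**Figure D4:**
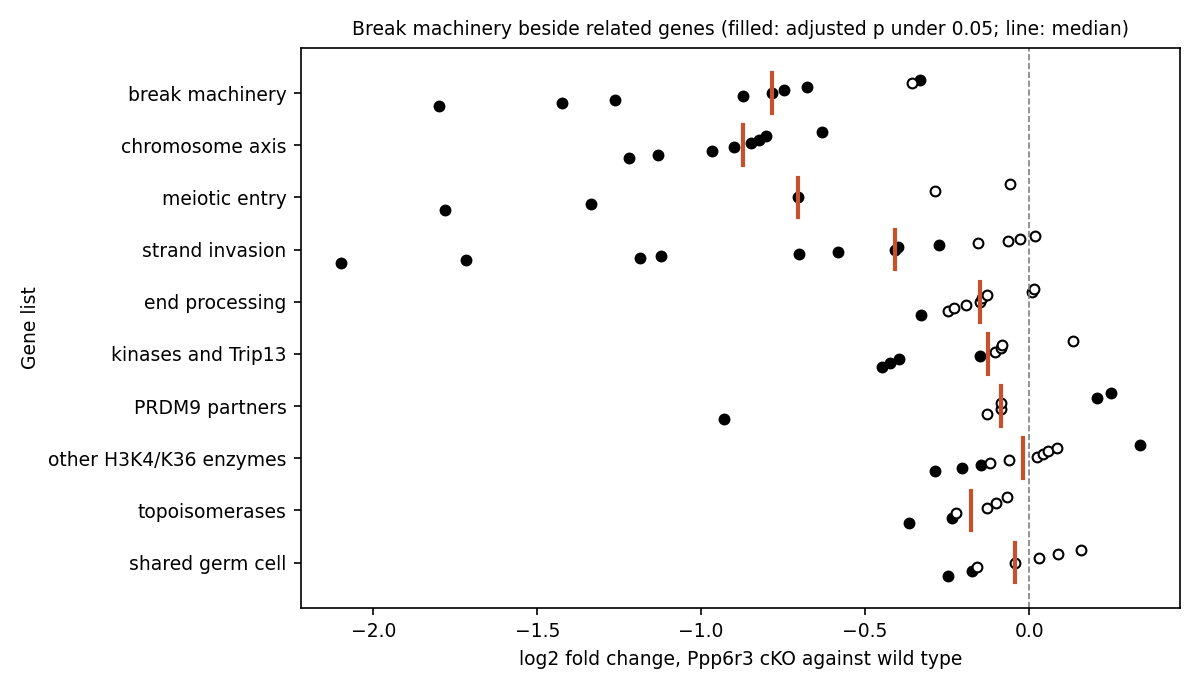
Log2 fold change (horizontal axis) of every tested gene in the break machinery and 9 related lists, 1 point per gene, filled where the adjusted p is under 0.05, with the median of each list as an orange line. Points of the break machinery and of the chromosome axis lie below 0 throughout. Those of end processing run from -0.33 to 0.016, and those of the other H3 enzymes from -0.29 to 0.34.

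The genes whose profiles over the 6 libraries were closest were found by the Euclidean distance between log2(FPKM + 0.1) values after subtraction of the wild-type mean, among 14682 other tested genes with a gene name. For Spo11 these were Tpbgl (distance 0.26), Msh5 (0.37) and Gal3st1 (0.43). For Prdm9 they were Tesmin (0.30), Mfsd13b (0.38) and Majin (0.40). For Zcwpw1 they were Pigp (0.078), Asb1 (0.11) and Rexo5 (0.13), and for Mei4 they were Srbd1 (0.074), Nfatc2ip (0.10) and Shisa7 (0.11). These profiles hold 6 libraries in 2 groups, and the genes were chosen for their likeness.

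**Figure D5:**
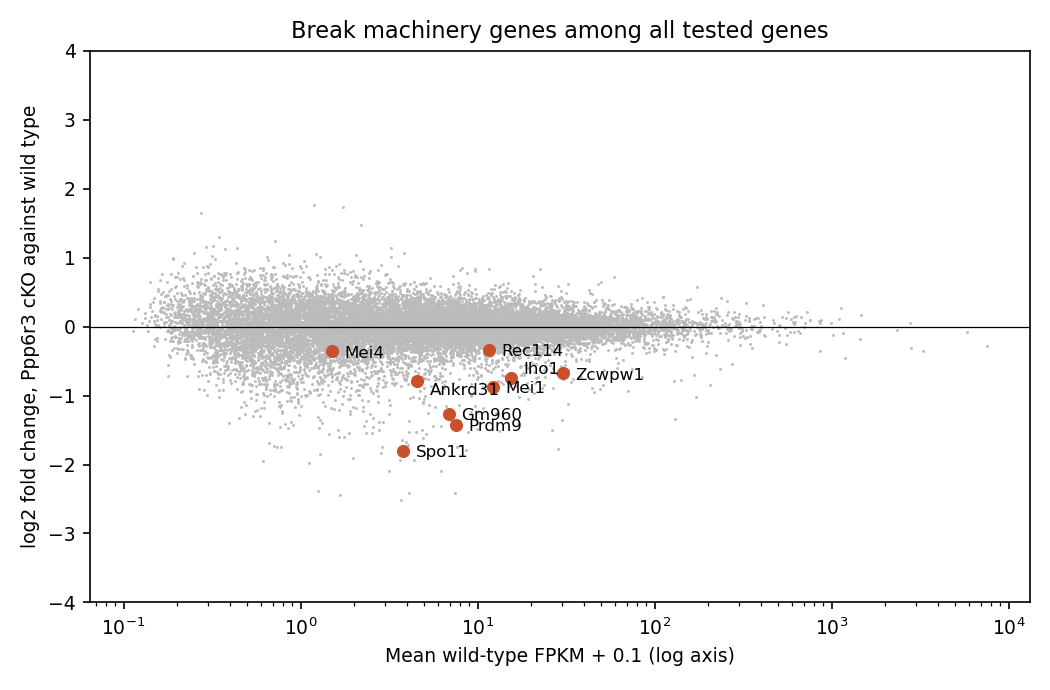
Log2 fold change against mean wild-type FPKM + 0.1 (log axis) for all 17658 tested genes (grey), with the 9 break machinery genes in orange. All 9 lie below 0, and Spo11, at 3.71 FPKM in wild type with a log2 fold change of -1.80, lies near the lower edge of the cloud.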

How the data were processed

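RNA-seq of 6 testis samples was analysed, 3 wild type and 3 Ppp6r3 cKO. Per the labels' protocols, TRIzol RNA was made into stranded mRNA libraries with a KAPA kit. Paired-end alignment to mm10 used Hisat2 2.0.5, per the series' design text. DESeq2 appears in the submitters' processing notes with no stated role. The counter, its strand setting and the annotation release are not given in the sources used here. The authors deposited FPKM, although the table's name speaks of raw counts. Values times GENCODE M21 exon length were whole multiples of 1 step per library (tolerance 0.01 fragments) for 31625 of 32589 genes above 0 (97.0%), 911 more were whole with another length, and 53 were left out. A gene was tested if 3 or more libraries held 10 or more of its recovered fragments, with limma 3.58.1 in R 4.3.3 on log2(FPKM + 0.1), with trend and robust moderation, 2-sided, adjusted by Benjamini-Hochberg over all tested genes, with 0.05 as the threshold. The script was tested on simulated data. An exact permutation test of a single gene cannot go below p = 0.1 in this design, so none was used.

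The 9 genes and the lists were chosen with earlier results of these data known. Named from the lists were 10 genes set in advance and the passing gene with the largest change in each direction. Gata4, Cnn1, Meioc, Cdyl, Mael and the replication protein A genes, as well as Nptn, Piwil1, Tnp1, the comparison with Zcwpw1 and the choice of promoters and motifs, were added after values were seen. Gcna was not matched. Iho1, Meiosin and Brme1 were matched through RefSeq synonyms. Coordinates are from GENCODE M21 on GRCm38 (mm10) and promoter sequences from RefSeq on GRCm38.p6. No replicates were duplicates: chi-square divided by its degrees of freedom was 2.19 to 4.26 between replicates. Alternatives changed the pseudocount, filter, model, scaling, GC and length, replicate block, threshold and libraries. Python 3.11.15, numpy 2.4.6, pandas 2.3.3 and matplotlib 3.10.9 were used.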

Additional observations from a re-analysis of the deposited data

How the results depend on the processing

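The count of break machinery genes that fell was 7 or 8 in all 17 alternatives, and where it was 7 the gene lost was Rec114: with no low-value filter, after the GC and length correction, at an adjusted p under 0.01, and without any 1 wild-type library or the first Ppp6r3 cKO library. Over all tested genes, 1388 fell in the main fit. In the alternatives this count ran from 471 (adjusted p under 0.01) to 1968 (voom). It was 642 to 808 without 1 wild-type library. No alternative reversed a break machinery gene. The log2 fold change of Spo11 ran from -1.89 (voom, which was run on recovered fragments) to -1.24 (pseudocount of 1), Gm960 from -1.40 to -1.04, Prdm9 from -1.59 to -1.18, Mei1 from -0.94 to -0.79, Ankrd31 from -0.85 to -0.62, Iho1 from -0.80 to -0.68, Zcwpw1 from -0.69 to -0.63, Rec114 from -0.38 to -0.25 and Mei4 from -0.41 to -0.21. A pseudocount of 1 made the values of Mei4 and Zcwpw2 (-0.55) over 1.5 times smaller, as the GC and length correction did for Ehmt2 (0.15), Dazl (-0.15), Setd1b (0.22), Mael (-0.070), Hells (-0.052) and Trip13 (-0.025). Relative to shared germ cell genes, Atm was at -0.053, Hells at -0.037 and Trip13 at -0.038.

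Of the 65 tested genes of the other 8 lists, 22 to 37 fell over the alternatives, and 23 to 29 without 1 library. The count that fell ran from 1 to 2 for partners of PRDM9, 2 to 4 for kinases, 0 to 4 for end processing, 1 to 3 for topoisomerases, 0 to 3 for other histone H3 enzymes, 0 to 3 for shared germ cell genes, 0 to 1 for Sertoli and Leydig genes and 1 to 2 for myoid genes. The count that rose ran from 1 to 2 for partners of PRDM9, Sertoli and Leydig genes, 0 to 1 for the other histone H3 enzymes, strand invasion and shared germ cell genes, and 3 to 6 for endothelial genes. Exo1, which did not pass, was at -0.00021 without wild-type replicate 1 and -0.0013 without Ppp6r3 cKO replicate 3, and without 1 library ran from -0.0013 to 0.043. The calls of Dazl, Mael and Rhox5 were each lost in 9 alternatives, Cnn1 in 13, Gata4 and Cdyl in 5, and Tdp2 and Kmt2c in 3. The cause was not tested.

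With the replicate number as a block, 8 break machinery genes fell, also together with the GC and length correction, and over all genes 2197 were called instead of 2743. Same-numbered samples did not deviate together (r = 0.014, -0.0045 and -0.0073), and only the number 1 correlated best with itself. Depth limits Mei4 and Spo11 most, with 69 to 76 and 54 to 70 fragments per Ppp6r3 cKO library.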
